A study of Rattus norvegicus with 36 samples.

Results

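Decentralization of the superior cervical ganglia was compared with sham surgery in rat pineal glands taken at mid-day. The comparison holds 6 of the 36 libraries of the series, the 3 labelled DCN and day and the 3 labelled Sham and day, and these were chosen by their labels alone. All 6 came from Sprague-Dawley rats operated on postnatal day 5 and killed at 40 days of age, at zeitgeber time 7 (hours after lights on). In DCN rats the sympathetic trunks that carry central signals to the ganglia were cut and the ganglia were left in place, whereas in Sham rats the ganglia were only exposed. Male and female pups entered the surgical groups, and how the sexes fell among the pools is not given in the sources used here. Each library was made from a pool of glands of the same group, so each value averages several animals. The other in vivo groups are Control rats, which had no surgery, and SCGX rats, from which the ganglia were removed, each with 3 pools at day and 3 at night (zeitgeber time 19). A separate experiment of the series, also used below, took glands of older, female rats. Those glands were kept in culture and then left untreated or given norepinephrine or dibutyryl cyclic AMP. P-values here measure the spread between pools.

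The pineal gland makes melatonin, and does so at night. Its rhythm is driven by the clock in the suprachiasmatic nucleus, which signals through the spinal cord and the superior cervical ganglia to sympathetic fibres that end in the gland. Those fibres release norepinephrine at night, and norepinephrine acts on adrenergic receptors and raises cyclic AMP in the pinealocyte. By day the release is low, so a comparison at mid-day asks what the gland loses or gains when the central signal is cut at a time when that signal is weak. In DCN rats the nerve endings are still in the gland, and in SCGX rats they are gone.

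The 6 day libraries held 14465293 to 16022995 read-pairs on genes. The tissue was checked against a set of 221 pineal-enriched genes. These were over 8 times higher in a day pool of pineal glands than in a pool of brain and other body tissues of the same series. These genes took 61522 to 73491 read-pairs per 1000000 in the 6 day libraries, 66461 in the pineal day pool and 3257 in the mixed-tissue pool. A second set, 1930 genes over 8 times higher in the mixed tissues than in both the day and the night pineal pool, is called mixed-tissue genes below. Genes of either set had a mean normalized count over 30 in the pineal day and mixed-tissue pools. Read-pairs on mixed-tissue genes numbered 9607 per 1000000 in DCN day replicate 1, against 2957 and 3321 in the other DCN day libraries and 2553 to 3966 in the Sham day libraries. DCN day replicate 1 therefore stood apart from the other 5. At night Sham replicate 3 stood apart in the same way, with 12505 per 1000000 against 2215 to 3300 in the other 5 night libraries of Sham and DCN. Many of the counts that rest on either library are given with and without it below, and the rest with it. No single gene was available to check the surgery. At night, when the signal is strong, 1095 of the 2833 genes that are higher at night in Control glands fell in DCN, which is 38.7% of them, and 30 rose. Without Sham night replicate 3, 1370 of 2830 fell (48.4%) and 17 rose.

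A small part of the genes tested at day was called as differing between DCN and Sham. Genes that were not called are not thereby shown to be unchanged. Of 16076 genes tested with edgeR's quasi-likelihood test, 407 passed an adjusted p of 0.05, which is 2.53% of the genes tested. Of these, 181 were higher in DCN than in Sham (1.13% of genes tested) and 226 were lower (1.41%). The changes were mostly modest, with a median fold of 1.722 among the genes that rose and 1.6 among those that fell. A change of over 2-fold was reached by 139 of the 407, which is 0.865% of genes tested, of which 75 rose and 64 fell. A change of over 4-fold was reached by 22 genes that rose and 19 that fell. In all 407 genes the 3 DCN values and the 3 Sham values did not overlap, a pattern that was common among all tested genes, since DCN lay wholly above Sham in 13.7% of them and wholly below in 14.2%. Called genes were more abundant than the rest, with a median level of 645 normalized counts for the genes that rose and 983 for those that fell, against 267 over all genes tested. The median change over all tested genes was 0.02 on the log2 scale.

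No gene passed the stricter threshold of an adjusted p of 0.001 with a change of over 2-fold. The smallest adjusted p was 0.00316, and 3560 genes had an unadjusted p under 0.05. The count depended strongly on the test. DESeq2 called 1372 genes at an adjusted p of 0.05 (587 higher, 3.65%, and 785 lower, 4.88% of genes tested) and 134 at the stricter threshold, and limma voom with library weights called 870 and 0. All 407 edgeR calls were among the 1372 of DESeq2.

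Leaving out DCN day replicate 1 gave 438 calls, 209 higher (1.32% of 15860 genes tested) and 229 lower (1.44%), of which 271 were shared with the 407. The shared genes are 66.6% of the first list and 61.9% of the second, and all 271 kept their direction. All 407 genes kept their sign without the library, and in 4 of them the log2 fold change moved by more than 1. The DCN and Sham values of these genes did not overlap, so leaving out a DCN library could hardly turn a sign. Nothing is read from the kept signs. Of the mixed-tissue genes, 978 were tested with the library and 787 without it. The others were under the count limit once it was left out. Over the 785 genes with a value in both fits, the median log2 change was 0.548 with the library and 0.003 without it. With all 6 libraries, 14 of the 978 were called higher (1.43%, against 1.13% of all genes tested) and 4 lower (0.409%, against 1.41%). Of the 407 called genes, 389 were not mixed-tissue genes, but only 978 of all 16076 genes tested were in that set. In all, 271 genes were over 4-fold higher in DCN day replicate 1 than in each of the other 5 libraries. Of these, 262 were mixed-tissue genes and 1 was called. Sham day replicate 3 had 107 such genes, of which 30 were mixed-tissue genes and 0 were called. A gene raised in 1 library of a group has a large spread there and is hard to call. These counts of calls therefore do not show how far the list rests on a library. Without DCN day replicate 1, 136 of the 407 were no longer called and 167 other genes were. Leaving out any of the other libraries lowered the number of calls. It was 19 without DCN day replicate 2, 32 without DCN day replicate 3, 113 without Sham day replicate 1, 10 without Sham day replicate 2 and 40 without Sham day replicate 3.

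**Figure D1:**
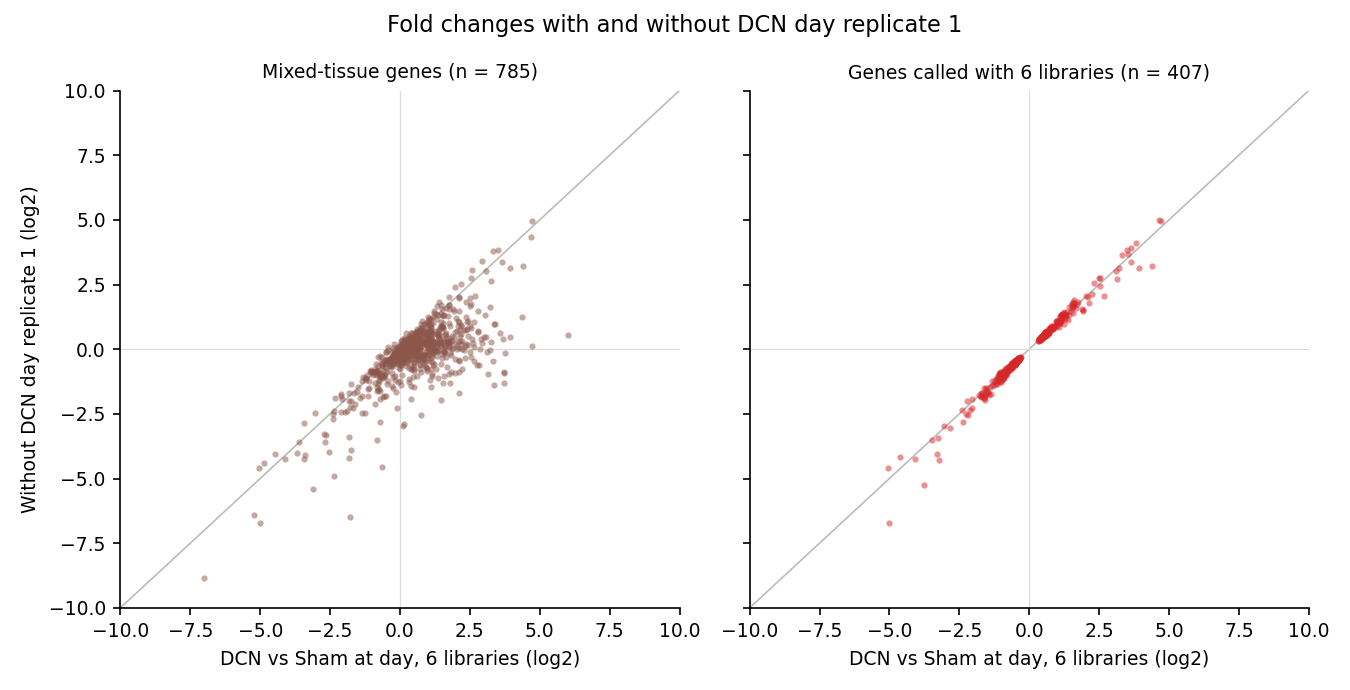
Log2 fold change of DCN against Sham at day with all 6 libraries (horizontal) and without DCN day replicate 1 (vertical), for 785 mixed-tissue genes with a value in both fits (left) and for the 407 called genes (right); each point is 1 gene and the diagonal marks equal values. Many mixed-tissue genes lie to the right of 0 only with the library, 264 being over 2-fold higher with it and 66 without it. The called genes, which were chosen with the library in the fit, lie along the diagonal.

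The count tables carry Ensembl identifiers and no gene names, so the genes are described here by how they behave in other libraries of the series. The 2 highest-ranked genes in each direction are given by identifier. The ranking took called genes whose mean over the 6 normalized counts reached 20, with no overlap between groups and a change of at least 2-fold in the same direction without DCN day replicate 1, which 71 higher and 64 lower genes met. It ordered them by the size of the change without that library. These are the same libraries that called them, so their values describe the comparison.

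ENSRNOG00000007694, a gene with 6998 bases of exon, had normalized counts of 387, 758 and 582 in the 3 DCN day libraries and 25.3, 20.1 and 20.5 in the 3 Sham day libraries. All DCN day values were above all Sham day values, and DCN day replicate 1 was the lowest of its group. The log2 fold change was 4.72 (SE 0.29, edgeR adjusted p = 0.00347), and 4.94 (SE 0.19, adjusted p = 0.000823) without DCN day replicate 1, where it was the 1 gene past the stricter threshold. This gene is in the mixed-tissue set, with a normalized count of 2390 in the mixed tissues and 55.6 in the pineal day pool. Control day glands had 22 to 29.8 and SCGX day glands 38.8 to 196, and SCGX exceeded Control at day by 2.13 on the log2 scale (SE 0.52, adjusted p = 0.0174). At night the DCN libraries had 232, 242 and 51.2 and the Sham libraries 7.06, 14 and 262, the last being the Sham night library that stood apart. The night difference was 0.93 (SE 1.24, adjusted p = 0.652) with that library and 4.02 (SE 0.81, adjusted p = 0.0192) without it.

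ENSRNOG00000017927, with 1422 bases of exon, was a gene of the night in intact glands. Control glands had 25.5 to 28.8 normalized counts at day and 726 to 989 at night, a log2 difference of 4.97 (SE 0.16, adjusted p = 3.37e-07). In the DCN day libraries it had 228, 372 and 543, and in the Sham day libraries 48.8, 15.3 and 16.6. Every DCN day value was above every Sham day value, by 3.83 on the log2 scale (SE 0.51, adjusted p = 0.0258), and by 4.09 without DCN day replicate 1 (SE 0.46, adjusted p = 0.0128). The call was lost without DCN day replicate 2 or 3 or without Sham day replicate 2 or 3, with adjusted p of 0.0677 to 0.101. SCGX day glands lay higher still, at 565 to 681. At night the DCN libraries had 336 to 555 against 593 to 1075 in Sham, a difference of -0.84 (SE 0.27) that did not pass (adjusted p = 0.0757). In glands kept in culture, with 3 libraries each for untreated glands and either agent, it rose with norepinephrine by 2.79 (SE 0.27, adjusted p = 1e-06) and with dibutyryl cyclic AMP, a stable analogue of cyclic AMP, by 1.94 (SE 0.32, adjusted p = 0.000381).

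ENSRNOG00000011438, with 1607 bases of exon, was nearly lost from the DCN glands. It had 4.25, 0 and 0.907 normalized counts in the DCN day libraries (5, 0 and 1 read-pairs) and 78.6, 48.7 and 55.6 in the Sham day libraries. The groups were far apart, with a log2 fold change of -5.01 (SE 0.73, adjusted p = 0.0306), and DCN day replicate 1 held 5 of the 6 read-pairs. Without that library 1 read-pair was left in DCN, against 195 in Sham, a ratio of Sham to DCN of 134 (exact 95% interval 23.8 to 5327, for counting error only). The fitted log2 fold change was then -6.73 (adjusted p = 0.0076). Leaving out any of the other 5 libraries ended the call, with adjusted p of 0.0679 to 0.104. Control glands had 65.4 to 109 at day and 10.7 to 33.2 at night. SCGX libraries had 0 to 2 read-pairs at either time, and DCN night libraries had 1 each against 13 to 23 in Sham night. This gene too is in the mixed-tissue set, with 8871 normalized counts in the mixed tissues and 132 in the pineal day pool.

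ENSRNOG00000005911, with 925 bases of exon, is in the pineal-enriched set, at 8.72 times its mixed-tissue level in the pineal day pool. The pineal night pool held 41 read-pairs of it among 36751559, and the mixed-tissue pool 39 among 38574186. It was thus not enriched in the night pool. This gene had 9.34, 0.903 and 1.81 normalized counts in the DCN day libraries and 81.3, 44 and 45.9 in the Sham day libraries. The groups did not overlap, with a log2 fold change of -3.75 (SE 0.71, adjusted p = 0.0487), and DCN day replicate 1 was the highest of its group. Without that library 3 read-pairs were left in DCN, against 183 in Sham, a ratio of Sham to DCN of 42 (exact 95% counting interval 14.1 to 205). The fitted log2 fold change was then -5.26 (adjusted p = 0.0107). Leaving out any of the other 5 libraries ended the call, with adjusted p of 0.0881 to 0.148. Control glands had 81.4 to 108 at day and 21.5 to 38.1 at night, whereas Sham glands had 44 to 81.3 at day and 32.3 to 67.6 at night, which overlap. DCN night and SCGX libraries of either time held 0 to 3 read-pairs each. In culture this gene rose with norepinephrine by 3.26 (SE 0.25, adjusted p = 6.09e-08) and with dibutyryl cyclic AMP by 4.35 (SE 0.28, adjusted p = 1.09e-07).

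**Figure D2:**
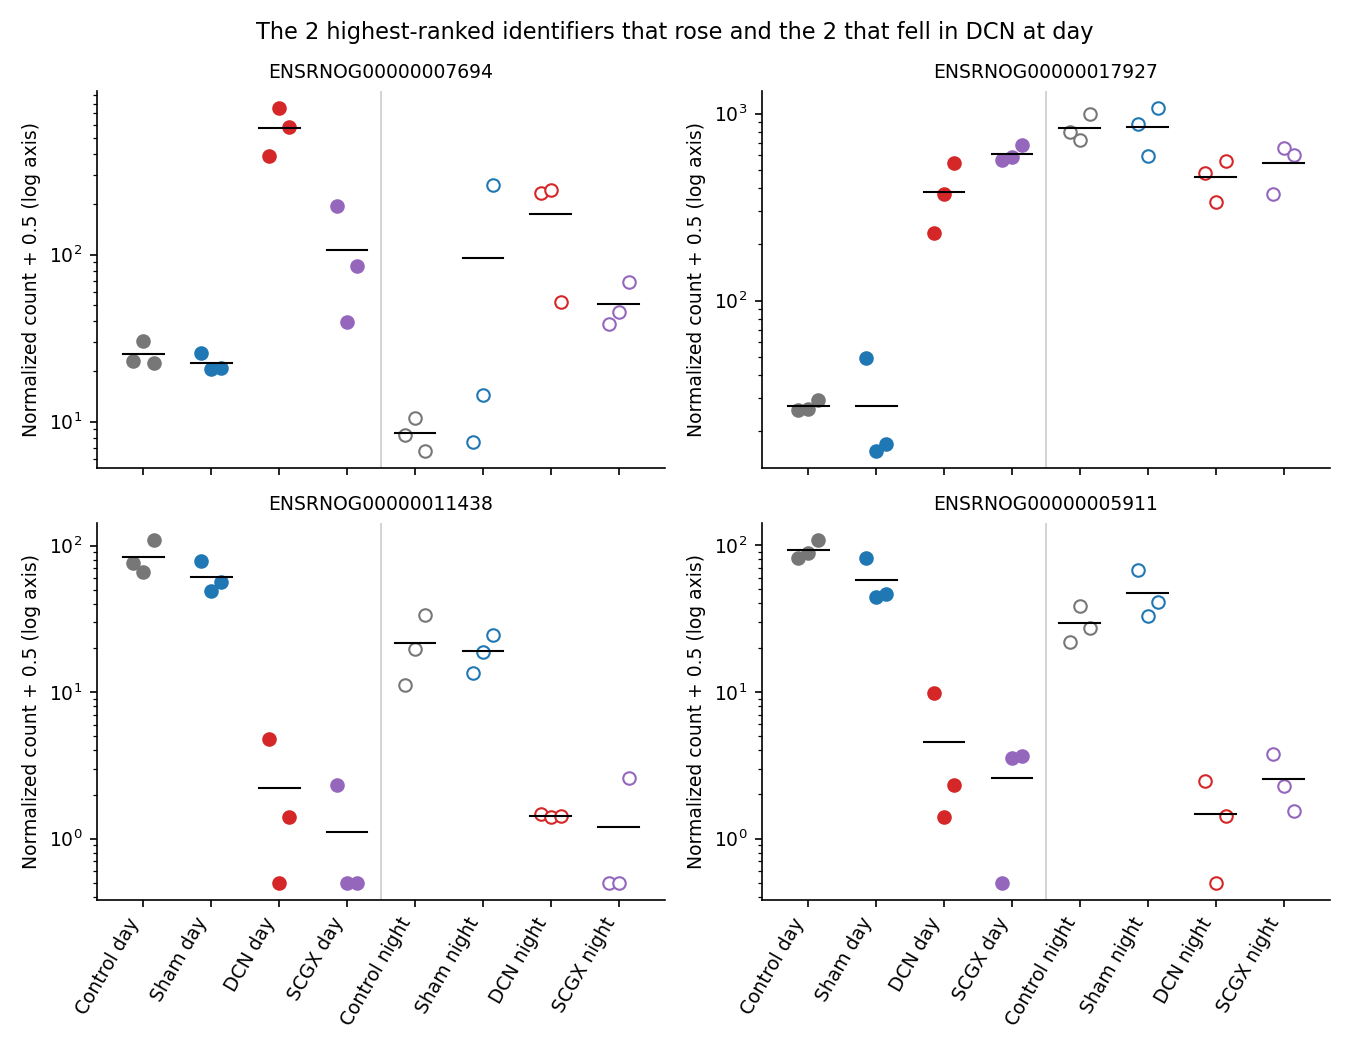
Normalized count plus 0.5 (log axis) of the 4 identifiers in each of the 24 in vivo libraries, with filled points for day, open points for night and a black line at the mean of each group of 3. In the upper panels the DCN day points lie above the Sham day points (228 or more against 48.8 or less), and in the lower panels they lie under the Sham day points (9.34 or less against 44 or more).

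Levels were then followed in all 24 in vivo libraries, as the median over a list of each gene's log2 difference from the mean of the 3 Sham day libraries. The Sham day libraries helped to choose the lists, so these medians are a description. For the 181 genes that rose, the DCN day libraries lay at 0.72 to 0.83. Control day libraries lay at 0 to 0.1, next to Sham. DCN night libraries, which had no part in the choice, lay at 0.65 to 0.8, SCGX day libraries at 0.64 to 0.82 and SCGX night libraries at 0.62 to 0.69. The 12 libraries of DCN and SCGX glands thus lay between 0.62 and 0.83, and the 12 of Control and Sham between 0 and 0.42, the highest being the Sham night library that stood apart. For the 226 genes that fell, DCN day lay at -0.75 to -0.66, DCN night at -0.72 to -0.6, SCGX day at -0.59 to -0.52 and SCGX night at -0.59 to -0.5, against -0.11 to 0.02 in Control day, -0.37 to -0.29 in Control night and -0.6 to -0.3 in Sham night. In whole glands, fewer cells of a type and less RNA per cell cannot be told apart.

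SCGX day against Control day is a comparison that shares no library with DCN day against Sham day, and it was added after the data were seen. Of the 181 genes that rose in DCN, 180 were tested there and 135 were also higher in SCGX, which is 75% against 11.7% of all genes. Another 5 were lower, and 170 of 180 had the same sign. Of the 226 genes that fell, 149 of 224 were also lower in SCGX, which is 66.5% against 11.4% of all genes, and 2 were higher. The median changes were 0.65 and -0.47 on the log2 scale. Without DCN day replicate 1, the counts were 160 of 208 higher and 157 of 229 lower. With the longer DESeq2 list they were 385 of 575 and 407 of 782. SCGX day against Sham day shares the Sham day libraries, and there 143 of 179 genes were higher (background 6.58%) and 162 of 226 lower (background 4.83%). DCN day against Control day shares the DCN libraries, and there 138 of 181 were higher (background 3.61%) and 170 of 224 lower (background 3.52%). The libraries that both share chose the lists, so nothing is read from these counts.

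**Figure D3:**
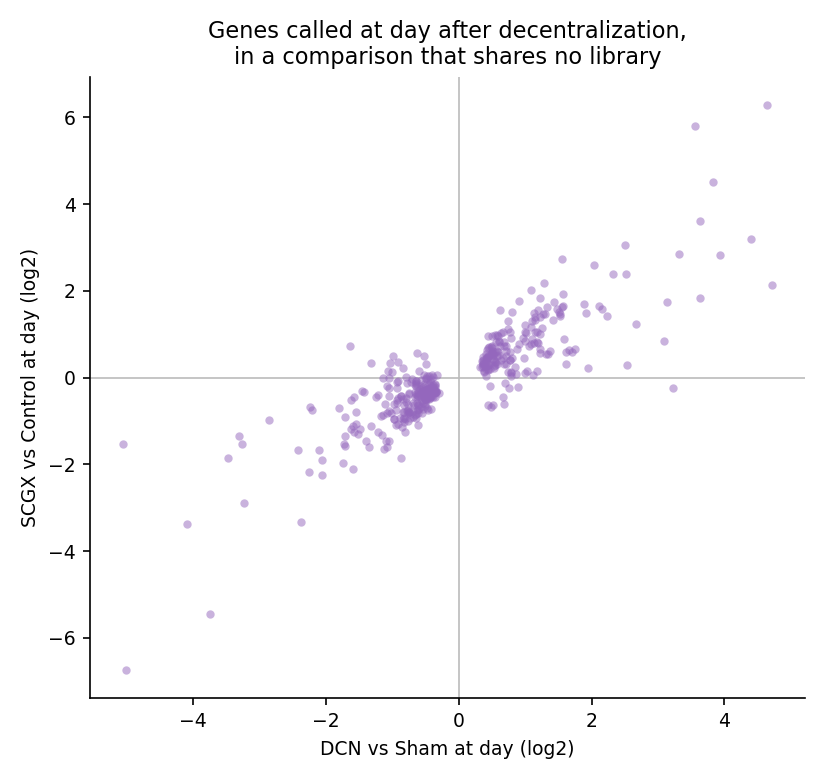
Log2 fold change of the called genes in DCN against Sham at day (horizontal) and in SCGX against Control at day (vertical), which share no library; each point is 1 gene. Most points lie at the lower left and upper right, 170 of 180 genes that rose and 203 of 224 that fell having the same sign in both.

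Genes with a night/day rhythm were more frequent in both lists than among all genes. In Control glands, 2842 genes were higher at night (18.2% of those tested) and 2665 were lower at night (17.1%). Of the 176 genes that rose in DCN at day and were tested in Control, 60 were higher at night (34.1%), 33 were lower at night (18.8%) and 83 had no call (47.2%). Of the 225 that fell, 44 were higher at night (19.6%), 99 were lower at night (44%) and 82 had no call (36.4%). Called genes were also more abundant than the rest, and the part of abundance in these shares was not tested. Most genes of either rhythm were not called at day. Among the 2779 night genes tested, 60 rose (2.16%) and 44 fell (1.58%), and among 2657 genes lower at night 33 rose (1.24%) and 99 fell (3.73%). Without DCN day replicate 1 the corresponding shares of the list were 41.9% of higher genes being higher at night and 43.2% of lower genes being lower at night.

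Among the called genes with a rhythm, 60 and 99 moved at day towards their night level, and 33 and 44 moved away from it. The 60 genes that rose and that are higher at night in Control lay in DCN day at 0.66 to 0.79 above the Sham day mean, where Control night libraries lay at 0.83 to 0.94 and Sham night libraries at 0.89 to 0.98. DCN night lay at 0.69 to 0.89 and SCGX at 0.86 to 0.99 by day and 0.76 to 0.78 by night. The 99 genes that fell and that are lower at night in Control lay at -0.68 to -0.66 in DCN day, -0.84 to -0.81 in Control night, -1.07 to -0.94 in Sham night and -0.8 to -0.75 in DCN night. The direction at day is fixed by how both classes were chosen.

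The medians of the other classes had the same sign in DCN libraries of both times. The 44 genes that fell although they are higher at night in Control lay at -0.75 to -0.73 in DCN day. They lay at -0.77 to -0.48 in DCN night, 0.54 to 1.03 in Control night and -0.16 to -0.11 in Control day. The 33 genes that rose although they are lower at night lay at 0.69 to 0.77 in DCN day and 0.45 to 0.64 in DCN night. They lay at -0.71 to -0.44 in Control night and 0.12 to 0.25 in Control day. For both classes Control day thus lay to the DCN side of Sham day. Genes with no rhythm in Control lay at 0.75 to 0.83 (83 genes that rose) and at -0.8 to -0.63 (82 that fell) in DCN day, and at 0.57 to 0.84 and -0.59 to -0.48 in DCN night.

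**Figure D4:**
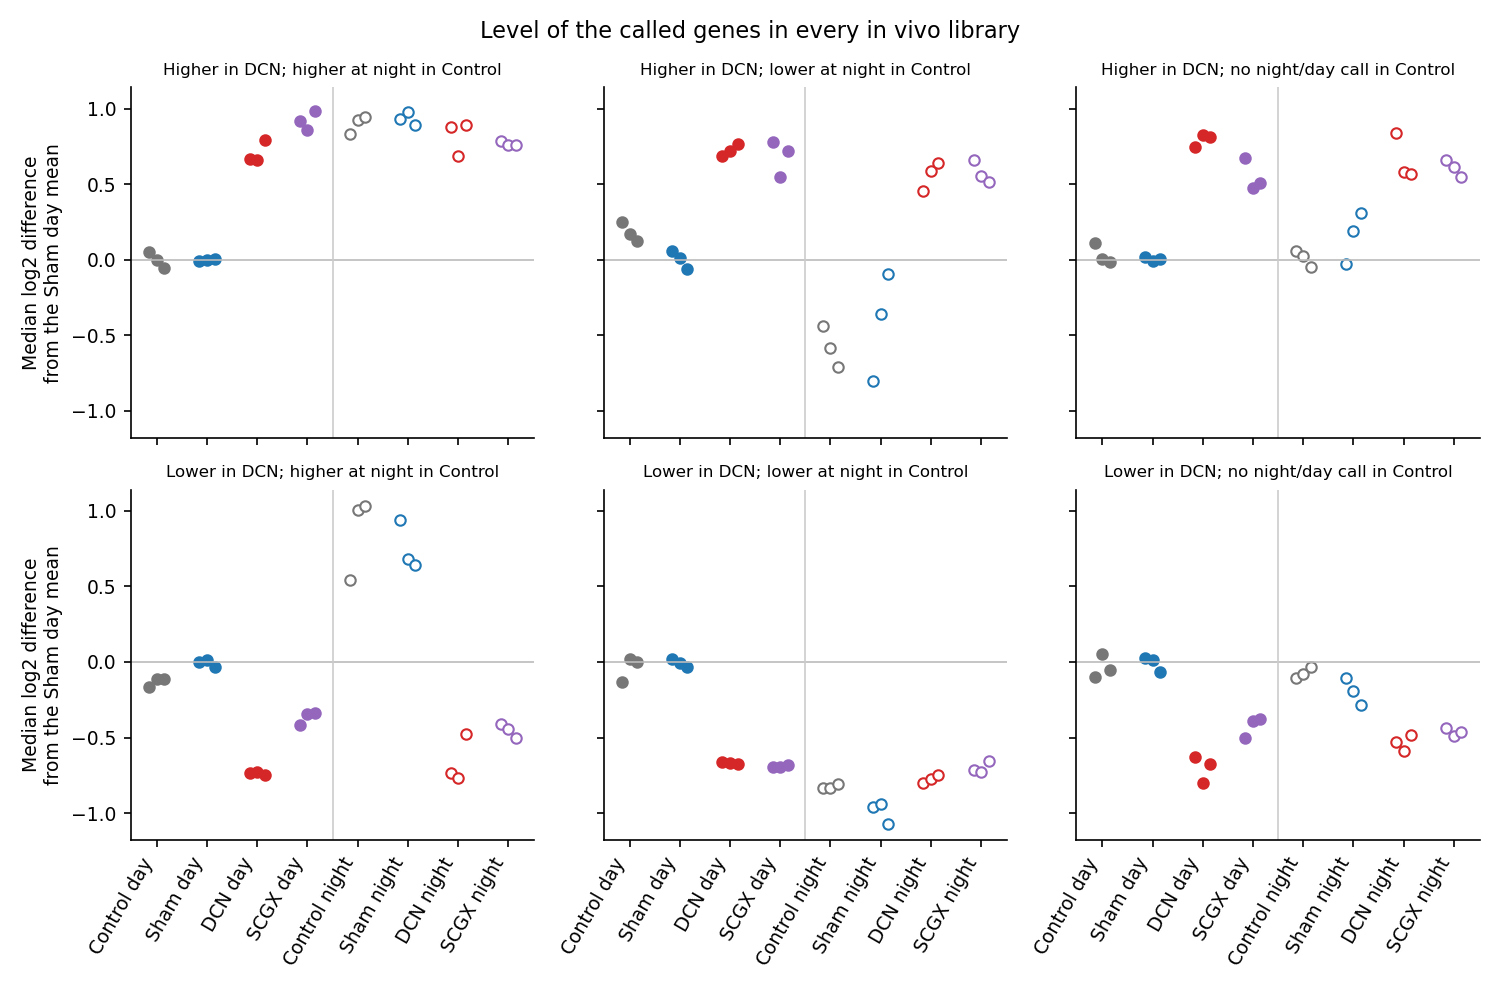
Median log2 difference from the Sham day mean over the genes of each class, with 1 point per library (filled for day, open for night); upper panels show genes that rose in DCN at day and lower panels genes that fell, split by their night/day call in Control. In each panel the DCN and SCGX libraries of both times lie on the same side of 0, while the Control and Sham night libraries lie close to them in the upper left (0.83 to 0.98) and lower middle panels (-1.07 to -0.81) and on the other side of 0 in the upper middle (-0.8 to -0.09) and lower left panels (0.54 to 1.03).

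At night, where DCN was compared with Sham in 6 other libraries, 8.98% of 15939 genes were higher and 8.09% lower. Of the 181 genes that rose at day, 47 were also higher at night and 16 were lower, and of 224 that fell, 62 were lower and 27 higher. In all, 265 of 405 genes had the same sign at both times. Without Sham night replicate 3, which gave backgrounds of 6.49% higher and 10.8% lower, 55 were higher and 20 lower of the first list, and 79 were lower and 18 higher of the second. In the lists called without DCN day replicate 1, with Sham night replicate 3 kept, 65 of 209 were higher at night and 16 lower. Of those that fell, 79 of 229 were lower and 23 higher, and 308 of 438 genes had the same sign.

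The night calls were then counted by class. Of the 83 genes that rose and had no rhythm, 24 were also higher at night (28.9%, against 5.54% of all genes with no rhythm) and 0 were lower. Of the 81 that fell and had no rhythm, 19 were lower at night (23.5%, against 1.73%) and 0 higher. Of the 44 genes that fell at day and are higher at night in Control, 38 also fell at night (86.4%, against 38.7% of all such genes), with a median night change of -1.67. Of the 33 that rose and are lower at night, 15 also rose at night (45.5%, against 31.8%), with a median of 0.96. The sign at night was the same in 18 of 60 and 25 of 99 genes of the remaining classes. Of the 60 genes that rose and are higher at night, 16 fell at night (26.7%, against 38.7%) and 6 rose (10%, against 1.06%). Of the 99 that fell and are lower at night, 27 rose at night (27.3%, against 31.8%) and 5 fell (5.05%, against 0.645%). Both the counts and the shares over each class moved without Sham night replicate 3. The 24 and 19 genes with no rhythm became 29 (34.9%, against 3.39%) and 32 (39.5%, against 2.99%). The 38 and 15 became 40 (90.9%, against 48.4%) and 19 (57.6%, against 24.6%). The 16 and 27 became 20 (33.3%, against 48.4%) and 18 (18.2%, against 24.6%). In the lists called without DCN day replicate 1, with Sham night replicate 3 kept, the 24 and 19 became 29 of 79 and 24 of 77. The 38 and 15 became 47 of 53 and 23 of 39. The 16 and 27 became 16 of 85 (18.8%) and 23 of 99 (23.2%). In those last classes the sign at night was the same in 35 of 85 and 36 of 99 genes.

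**Figure D5:**
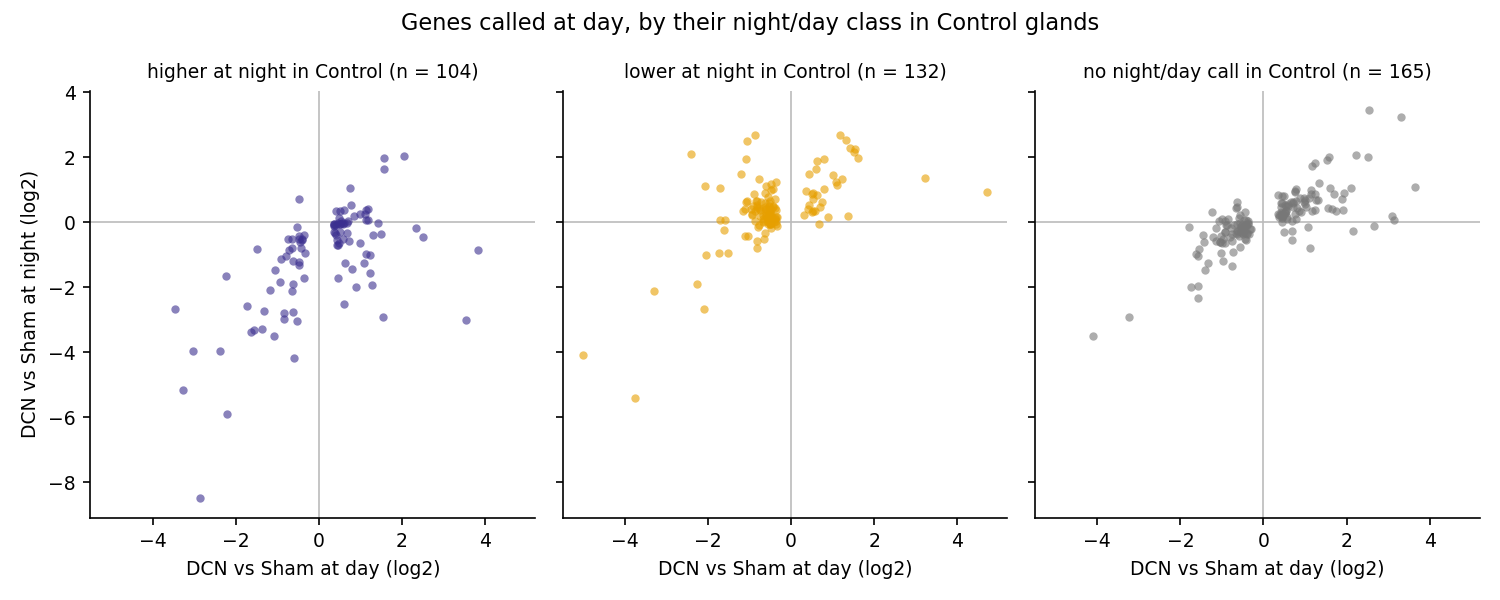
Log2 fold change of DCN against Sham at day (horizontal) and at night (vertical) for the called genes, in 3 panels by their night/day call in Control; each point is 1 gene. Genes with no rhythm lie mostly in the lower left and upper right. The sign is the same in 76 of 83 that rose and 67 of 81 that fell. It is also the same in 43 of 44 that fell and are higher at night and 32 of 33 that rose and are lower at night. Over all tested genes, the median night change was -0.36 for those higher at night and 0.4 for those lower at night. These night signs were thus the more common ones over each rhythmic class. The same sign is found in 18 of 60 that rose and are higher at night and in 25 of 99 that fell and are lower at night.

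The difference between the day effect and the night effect was tested as an interaction of surgery and time in the 12 Sham and DCN libraries. Of 16047 genes, 1802 had an interaction at an adjusted p of 0.05 (11.2%). Among the genes called at day it was 151 of 405 (37.3%), and the day libraries are part of both tests. In the lists called without DCN day replicate 1 it was 58 of 209 higher and 85 of 229 lower genes. That library was kept in the interaction fit. For ENSRNOG00000017927 the night effect minus the day effect was -4.69 on the log2 scale (SE 0.59, adjusted p = 0.000489). The interaction did not pass for ENSRNOG00000007694 (-3.77, SE 1.41, adjusted p = 0.112), ENSRNOG00000011438 (adjusted p = 0.699) or ENSRNOG00000005911 (adjusted p = 0.375). The value of -3.77 rests on Sham night replicate 3. Without that library the night effect of ENSRNOG00000007694 was 4.02, against 4.72 at day.

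The sets of rhythmic and agent-responsive genes held calls in both directions at day, to be read against 1.13% higher and 1.41% lower over all genes. Of the 860 genes over 2-fold higher at night in Control, 797 were tested, 25 rose (3.14%) and 23 fell (2.89%), and their median log2 change was 0.095. It was 0.31 for those past an adjusted p of 0.001 and over 4-fold. The median of these genes relative to the Sham mean was 0.058, 0.066 and 0.109 in DCN day replicates 1, 2 and 3. Of the 766 genes over 2-fold lower at night, 758 were tested, 9 rose (1.19%) and 38 fell (5.01%), with a median of 0.003. Among 540 tested genes that norepinephrine raised over 2-fold in culture, 16 rose (2.96%) and 27 fell (5%), and among 824 raised by dibutyryl cyclic AMP 21 rose (2.55%) and 30 fell (3.64%). Among 220 that norepinephrine lowered over 2-fold, 8 rose (3.64%) and 9 fell (4.09%). Among 413 lowered by dibutyryl cyclic AMP, 9 rose (2.18%) and 10 fell (2.42%). Without DCN day replicate 1, the counts that rose and fell were 35 and 35 of the night genes, 9 and 44 of the genes lower at night, 17 and 34 of those raised by norepinephrine and 23 and 35 of those raised by dibutyryl cyclic AMP. They were 11 and 11 of those lowered by norepinephrine and 12 and 9 of those lowered by dibutyryl cyclic AMP. Of the 216 tested pineal-enriched genes, 7 rose (3.24%) and 16 fell (7.41%), with a median of -0.068, and without DCN day replicate 1 the counts were 10 and 19 and the median -0.011.

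The called lists held genes that respond to these agents in either direction. Norepinephrine raised 14.2% and lowered 16.1% of all genes tested in culture, and dibutyryl cyclic AMP 19.4% and 22.5%. Of the genes that rose in DCN, norepinephrine raised 49 of 175 and lowered 33, and dibutyryl cyclic AMP raised 57 and lowered 39. Of the genes that fell, norepinephrine lowered 56 of 221 and raised 63, and dibutyryl cyclic AMP lowered 58 and raised 75. SCGX against Sham at night, where 11.6% of genes were higher and 9.13% lower, called 57 of the 181 genes that rose higher and 20 lower, and 59 of 224 that fell lower and 35 higher. Without Sham night replicate 3 (backgrounds 10.4% higher and 14.9% lower), the counts were 68 and 26, and 82 and 32. Without DCN day replicate 1, norepinephrine raised 59 of 204 genes that rose and lowered 48, and lowered 53 of 225 that fell and raised 70.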

How the data were processed

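The authors sequenced ribosome-depleted, stranded total RNA from pools of glands, aligned it with STAR 2.3.1y to rn4 and assigned read-pairs to Ensembl genes with QoRTs, following HTSeq's union rule. What was deposited is raw counts, in whole read-pairs. The authors also deposited RPKM, from which only exon length was taken. Read-pairs that overlap the exons of more than 1 gene are not counted, so genes that overlap another gene can be undercounted. Samples were grouped by the labels.

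Counts of each comparison were normalized by TMM and tested with edgeR 4.0.16 in R 4.3.3 (quasi-likelihood, Benjamini-Hochberg adjustment, default settings) in genes whose normalized counts averaged 5 or more. Each fit used only its own libraries (3 per group). Normalized counts printed for single genes are scaled over the 33 in vivo and culture libraries. Alternatives were DESeq2 1.42.0, limma 3.58.1, other scalings, filters and adjustments, a common model, a replicate block and leaving out each library. Libraries with the same number did not deviate together (correlations of 0.035, 0.012 and -0.009), and 0 pairs of libraries were identical.

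The comparison, lists and alternatives were chosen with earlier results of these data known. Night values without Sham night replicate 3 and values of the list called by DESeq2 were added after the data were seen. The gene table used here pairs 0 of 29516 identifiers with symbols, so the planned gene lists, cell type markers and promoter motifs, and the sequences of genes, were not analysed here. The rule for naming asked for 15 genes with a symbol in each direction. Without symbols, 2 identifiers in each direction are named.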

Additional observations from a re-analysis of the deposited data

Results flagged for a closer look

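The effects of decentralization at day and at night differed, by the interaction test, in 151 of the 405 genes called at day and tested in both. That is 37.3%, against 11.2% of all genes tested. The day libraries that chose these genes are part of the interaction fit, and Sham night replicate 3 was kept in it. The sign was opposite at night in 116 of the 151, of which 43 were also called at night. In 23 the effect had the same sign and was larger at night, and in 12 it was smaller. ENSRNOG00000017927 differed between the times by -4.69 on the log2 scale (SE 0.59, edgeR adjusted p = 0.000489). Groups hold 3 libraries, so no single library was tested for its distance from its group.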

How the results depend on the processing

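The count of genes called at day in edgeR (407) moved by over 1.5 times with DESeq2 (1372, or 1326 with its fold change prior), limma voom with library weights (870), a common model of all in vivo libraries (1628), the replicate block (65) and Benjamini-Yekutieli adjustment (7). Leaving out 1 library gave 10 to 438. The count past the stricter threshold (0) became 134, 36 and 57 with DESeq2, its prior and the common model, 4 with no count filter, and 0 to 1 with 1 library left out. The interaction count (1802) became 3316 in the common model and 573 with Benjamini-Yekutieli adjustment, and 1181 to 1952 with 1 library left out. The genes with the same sign at night (265 of 405) became 858 of 1368, 846 of 1324, 572 of 864, 1017 of 1628, 37 of 65 with the replicate block and 3 of 7 under the same alternatives, 5 of 16 for calls at an adjusted p of 0.01, and 5 to 308 with 1 library left out. The median of the night genes (0.095) was 0.06 with the DESeq2 prior, 0.183 with scaling by library size only and 0.31 for night genes at an adjusted p of 0.001 and over 4-fold, and 0.06 to 0.109 with 1 library left out. The counts of genes with the same sign are to be read beside the number of genes called, which moved as well. The cause of these moves was not tested.

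Scaling by library size only turned the split of calls from 181 higher and 226 lower to 278 and 163, and moved the median of all genes to 0.077. Leaving out both DCN day replicate 1 and Sham day replicate 3, chosen after the data were seen, gave 340 calls, 179 of them shared with the 407. ENSRNOG00000007694 kept its call in all 19 alternatives. ENSRNOG00000017927 lost it in 6 of 19, ENSRNOG00000011438 in 7 of 18 and ENSRNOG00000005911 in 8 of 18, the replicate block among them for all 3, and none reversed. With the replicate block, 57 of its 65 calls were among the 407. The gene list medians were not run. At this depth and with 3 pools a group, genes with a mean normalized count under 5 were not tested.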
